A study of Mus musculus with 12 samples.

Results

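The genes described here are 5 members of the CXC chemokine family and its receptors in the mouse oviduct. They are the ligands Cxcl12, Cxcl14 and Cxcl16, the signalling receptor Cxcr4 and the atypical receptor Ackr3, which older annotations call Cxcr7. They were taken by symbol from the study's own list of genes that passed its overall model on these same 12 arrays, out of 18194 genes with a probe set of their own on the array. The values that chose them are therefore the values described below, and all differences between groups of these 5 genes are descriptions. No p-value is given for them, and where the fit across all rows called 1 of them the call is counted only to stand beside the share of rows called, with nothing read from it.

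RNA of whole oviducts from immature female mice on a C57BL/6 background was hybridised to 12 Affymetrix Mouse Genome arrays, 3 in each of 4 groups. PMSG-treated ESR1KO and PMSG-treated WT mice received 5 IU of PMSG, a gonadotropin that stimulates follicles and ovarian estradiol, at 23 days of age and were killed 48 h later. ESR1KO and WT mice were killed untreated at 23 days. Each array held RNA pooled from 3 to 4 mice. ESR1KO mice (ESR1-/- or ESR1-/- ZP3Cre) carried a global deletion of estrogen receptor alpha, made by Cre expressed in the oocyte of the mother. The WT animals were siblings of genotype ESR1flox/- or ESR1flox/- ZP3Cre, so that they also lacked 1 copy of ESR1 and carried the floxed allele. The PMSG-treated mice were 2 days older than the untreated mice, and PMSG and age cannot be told apart.

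Chemokines of the CXC class are small secreted proteins that guide cells carrying a matching receptor. CXCL12, made mainly by stromal and endothelial cells, binds both CXCR4, a G protein-coupled receptor that directs migration of leukocytes and progenitor cells, and ACKR3, an atypical receptor that takes up CXCL12 without the usual G protein signal and so limits how much of it reaches CXCR4. CXCL14 is a chemokine of epithelia and stroma with no settled receptor. CXCL16 is made as a membrane-bound protein, acts also as a scavenger receptor, and is recognised by CXCR6. In human breast cancer cells CXCL12 is a known estrogen-induced gene.

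Promoters of 4 of the 5 genes were found in RefSeq (GRCm38.p6) and searched over the 250 bases before the start given there. Those of Cxcl12 and its receptors Cxcr4 and Ackr3 are shown, the ligand and receptors of 1 axis whose signals differed by at least 2-fold in at least 1 comparison below. Capitals mark matches of the motifs that follow.
Cxcl12 (chr6:117168285-117168534, plus strand): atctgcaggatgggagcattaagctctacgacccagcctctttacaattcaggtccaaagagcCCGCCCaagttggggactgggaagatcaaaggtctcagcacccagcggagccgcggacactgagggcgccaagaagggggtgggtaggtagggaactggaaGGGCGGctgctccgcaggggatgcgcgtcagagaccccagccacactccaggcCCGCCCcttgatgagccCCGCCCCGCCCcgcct
Cxcr4 (chr1:128592300-128592549, minus strand): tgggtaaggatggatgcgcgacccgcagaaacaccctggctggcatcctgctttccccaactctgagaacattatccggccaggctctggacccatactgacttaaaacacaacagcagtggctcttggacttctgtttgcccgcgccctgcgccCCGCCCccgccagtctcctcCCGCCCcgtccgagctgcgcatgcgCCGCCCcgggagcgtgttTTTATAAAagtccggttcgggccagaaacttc
Ackr3 (chr1:90203730-90203979, plus strand): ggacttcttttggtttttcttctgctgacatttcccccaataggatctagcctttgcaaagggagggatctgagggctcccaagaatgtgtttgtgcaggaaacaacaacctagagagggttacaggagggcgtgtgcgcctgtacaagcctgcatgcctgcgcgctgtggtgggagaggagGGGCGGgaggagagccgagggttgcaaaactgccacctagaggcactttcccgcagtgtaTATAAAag
The letters searched, on both strands, were GGTCANNNTGACC (the palindromic estrogen response element), GGTCA (its half-site), TGANTCA (the AP-1 element), GGGCGG (the GC box bound by Sp1-type factors) and TATAAA (the TATA box). No promoter of the 4 held GGTCANNNTGACC, which occurred in 0.0639% of 32851 promoters of the same length, and none held TGANTCA (6.75%). The Cxcl14 window, which lies before a start within the annotated gene, held 1 half-site, GGTCA on the opposite strand at 130 to 126 bases before that start. The half-site was absent from the other 3 windows and occurred in 35.2% of all promoters. The Cxcl12 window held 5 GC boxes, 1 of them on the gene's strand at 86 to 81 bases before the start and 2 of them sharing a base, the Cxcr4 window held 3 and the Ackr3 window held 1, against 32.7% of all promoters with at least 1. TATAAA was present at 30 to 25 bases before the start of Cxcr4, where it overlapped a match on the opposite strand, and at 8 to 3 bases before that of Ackr3 (12.4% of all promoters). These matches describe the letters in the window and are not sites shown to be bound.

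Signals are log2 expression values after GC-RMA, and a signal under 4 was taken as near background. All 5 genes were above 4 on every array. Esr1, read by a probe set whose position relative to the deleted part is not given in the sources used here, had 10.11, 10.62 and 10.56 in PMSG-treated ESR1KO oviducts, against 12.62, 12.82 and 12.21 in PMSG-treated WT oviducts. It had 10.42, 12.13 and 11.05 in ESR1KO, against 12.94, 12.92 and 13.05 in WT. The signal was lower on every ESR1KO array than on every WT array, but the untreated ESR1KO replicate 2 stood nearest to WT. The ESR1KO versus WT differences of the 5 genes are also given without that array. Of the markers of the labelled tissue, 6 of 6 genes of secretory epithelium (Ovgp1, Pax8 and others) and 6 of 6 of ciliated epithelium were above 4 in untreated ESR1KO oviducts. Of 5 ovarian markers, Inha was above 4 there and Amh, Gdf9, Zp3 and Oosp1 were under it.

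Cxcl12, the ligand of CXCR4 and ACKR3, was higher in oviducts without ESR1 in both the PMSG-treated and the untreated mice. Its log2 signal was 12.28, 12.99 and 12.89 in PMSG-treated ESR1KO oviducts, against 10.85, 10.81 and 10.28 in PMSG-treated WT oviducts. The lowest knockout array stood 1.42 above the highest WT array. The means were 12.72 ± 0.39 and 10.65 ± 0.32 (SD, n = 3 each), a log2 difference of 2.07 ± 0.23 (SE), or 4.21-fold higher. Untreated ESR1KO oviducts had 12.73, 12.47 and 12.42, against 10.89, 11.26 and 11.18 in WT. These groups also did not overlap, and the log2 difference was 1.43, or 2.70-fold higher. Within each genotype the change with PMSG was small. PMSG-treated WT oviducts were lower than WT by 0.46 on the log2 scale, with 0.04 between the nearest arrays, and PMSG-treated ESR1KO overlapped ESR1KO (difference 0.18). The order of the means was therefore PMSG-treated ESR1KO and ESR1KO, which do not differ beyond their spread, then WT, then PMSG-treated WT. In whole tissue, fewer cells of a type and less RNA per cell cannot be told apart, here and for each gene below.

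Cxcl14, the chemokine without a settled receptor, ran the opposite way. Its signal was 5.21, 6.32 and 5.96 in PMSG-treated ESR1KO oviducts, against 7.20, 7.72 and 7.75 in PMSG-treated WT oviducts, with every knockout array below every WT array. The means were 5.83 ± 0.57 and 7.56 ± 0.31 (SD, n = 3 each), a log2 difference of -1.73 ± 0.30 (SE), or 3.31-fold lower. In untreated mice the signal was 5.40, 5.72 and 4.81 in ESR1KO, against 7.20, 7.27 and 7.04 in WT, a difference of -1.86, or 3.62-fold lower. The knockout values were the more scattered ones in both comparisons. PMSG-treated WT overlapped WT (7.56 and 7.17 on average), and PMSG-treated ESR1KO overlapped ESR1KO (5.83 and 5.31). The levels thus formed a lower pair of knockout groups and a higher pair of WT groups, and neither pair differed within itself beyond its spread.

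Cxcl16, the membrane-bound ligand of CXCR6, was moderately higher without ESR1. The signal was 7.26, 7.68 and 7.19 in PMSG-treated ESR1KO oviducts, against 6.82, 6.78 and 6.16 in PMSG-treated WT oviducts. The arrays did not overlap and the log2 difference was 0.79 ± 0.23 (SE), or 1.73-fold. Untreated ESR1KO oviducts had 7.29, 7.72 and 8.0, against 6.79, 6.99 and 6.78 in WT, a difference of 0.82, or 1.76-fold, again without overlap. Both differences were under 2-fold. With PMSG the groups overlapped in WT mice (difference -0.27) and in ESR1KO mice (difference -0.29). The probe set read for Cxcl16 and that read for Ackr3 are of the class that may match more than 1 transcript.

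Cxcr4, the signalling receptor for CXCL12, was lower after PMSG in WT mice by over 2-fold, a size that no other of the 5 genes reached with PMSG in either genotype. Its signal was 8.10, 8.57 and 8.16 in PMSG-treated WT oviducts, against 9.63, 9.83 and 9.90 in WT oviducts. All treated arrays lay below all untreated ones, with 1.06 between the nearest. The means were 8.28 ± 0.26 and 9.79 ± 0.14 (SD, n = 3 each), a log2 difference of -1.51 ± 0.21 (SE), or 2.85-fold lower. In knockout mice the signal was 8.59, 9.26 and 9.03 in PMSG-treated ESR1KO oviducts, against 8.63, 9.59 and 9.83 in ESR1KO oviducts. These groups overlapped (difference -0.39), and ESR1KO replicate 1 was the lowest array of its group by almost 1 log2 unit. The interaction of genotype and PMSG, the change with PMSG in ESR1KO minus that in WT, was 1.12 on the log2 scale. It was 0.76 without ESR1KO replicate 1 and 1.36 without ESR1KO replicate 3. Between genotypes, PMSG-treated ESR1KO exceeded PMSG-treated WT by 0.68, with only 0.01 between the nearest arrays, and ESR1KO overlapped WT (difference -0.43, or -0.08 without ESR1KO replicate 1). The means ran WT, ESR1KO, PMSG-treated ESR1KO and PMSG-treated WT from high to low. The arrays of WT and ESR1KO overlapped, as did those of ESR1KO and PMSG-treated ESR1KO.

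Ackr3, the atypical receptor that removes CXCL12, was lower without ESR1, opposite to its ligand Cxcl12. Its signal was 10.28, 9.86 and 10.06 in PMSG-treated ESR1KO oviducts, against 12.17, 11.97 and 11.25 in PMSG-treated WT oviducts. The groups were 0.97 apart at their nearest arrays. The means were 10.07 ± 0.21 and 11.80 ± 0.48 (SD, n = 3 each), a log2 difference of -1.73 ± 0.25 (SE), or 3.32-fold lower. Untreated ESR1KO oviducts had 9.96, 10.26 and 9.71, against 11.35, 11.24 and 10.75 in WT, a difference of -1.14, or 2.20-fold lower without overlap. PMSG-treated WT was on average 0.68 above WT, with overlapping arrays, and PMSG-treated ESR1KO and ESR1KO were almost equal (difference 0.09). The means ran PMSG-treated WT, WT, PMSG-treated ESR1KO and ESR1KO from high to low, and neither the WT pair nor the knockout pair was separated.

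**Figure D1:**
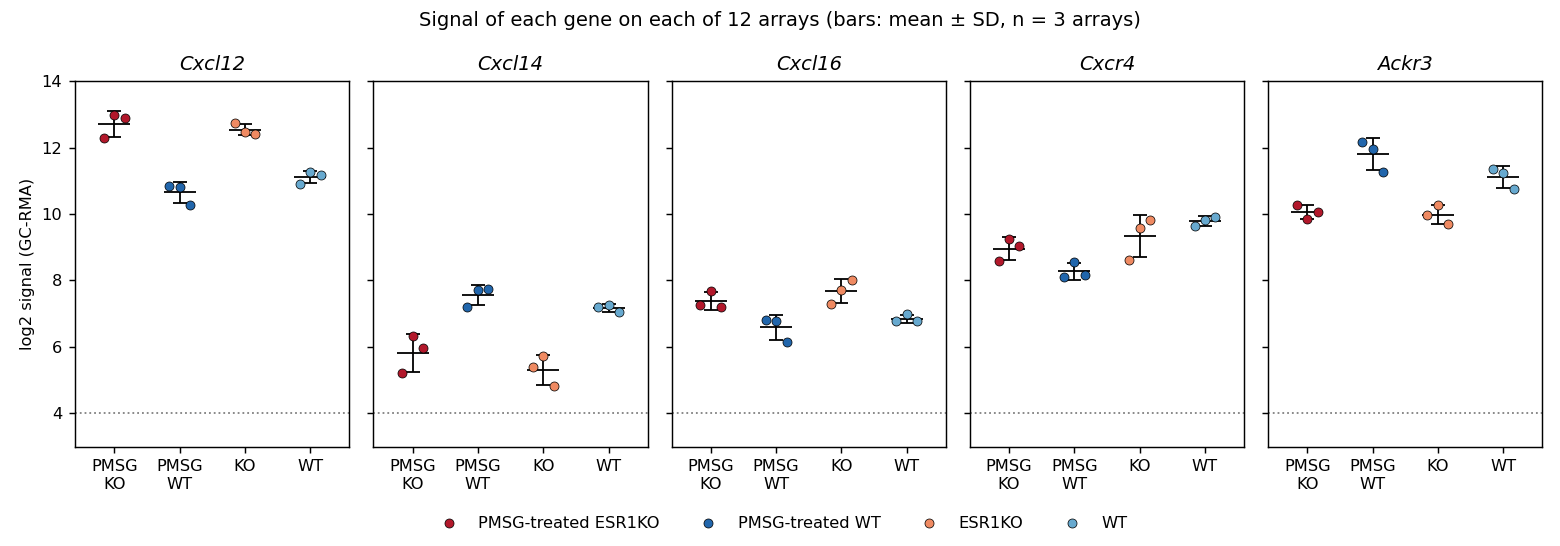
Log2 signal (vertical axis) of the 5 genes on each of the 12 arrays, with groups along the horizontal axis (KO stands for ESR1KO), points for arrays, bars for the mean ± SD of 3 arrays and a dotted line at 4, the limit taken as near background. Cxcl12 and Cxcl16 lie higher and Cxcl14 and Ackr3 lower in both knockout groups, and Cxcr4 is lowest in PMSG-treated WT (8.28 on average).

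A difference was called where limma's moderated test gave an adjusted p under 0.05 over all rows of the table and the change was at least 2-fold. In the genotype comparison after PMSG, that is, ESR1KO against WT when both had received PMSG, 3 of the 5 genes were called (Cxcl12, Cxcl14 and Ackr3), where 4.48% of all rows were, and 5 of 5 had arrays that did not overlap, against 19.6% of all rows. Among the rows located in all 12 arrays, which the study chose as changed, 48.3% were called and 93.1% did not overlap. In ESR1KO versus WT, fitted on those located rows only, 2 of 5 genes were called (Cxcl12 and Cxcl14), against 18.1%, and 4 of 5 did not overlap, against 78.5%. In PMSG-treated WT versus WT, 1 of 5 was called (Cxcr4), against 0.251% of all rows and 3.81% of located rows, and 2 of 5 did not overlap, against 13.5% of all rows and 53% of located rows. In PMSG-treated ESR1KO versus ESR1KO, 0 of 5 were called and 0 of 5 were free of overlap, against 0.1% and 21.5% of located rows. The interaction was called for 0 of 5, against 0.651%. Since the genes were chosen on these contrasts, nothing is read from these shares.

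The median log2 difference of the 5 genes was 0.68 in the genotype comparison after PMSG, against 0.36 over the located rows that the genes come from and 0.01 over all rows. It was -0.27 in PMSG-treated WT versus WT, against -0.03 over located rows and 0.01 over all rows. It was -0.43 in ESR1KO versus WT, against 0.15 over located rows. The 5 genes had no common direction in any comparison. In the genotype comparisons after PMSG and in untreated mice, Cxcl12 and Cxcl16 were higher and Cxcl14 and Ackr3 lower in each. These comparisons share no arrays, but the arrays of both entered the model that chose the genes, so nothing is read from this either.

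Calls in untreated mice depended on single arrays. In ESR1KO versus WT, no gene was called without ESR1KO replicate 1 or without WT replicate 1, and Cxcl12 alone was called without ESR1KO replicate 3, WT replicate 2 or WT replicate 3, while Ackr3 was called in addition to both without PMSG-treated WT replicate 3. Without ESR1KO replicate 2, the array with the highest Esr1 signal of its group, the log2 differences were 1.46 for Cxcl12, -2.06 for Cxcl14, 0.79 for Cxcl16, -0.55 for Cxcr4 and -1.28 for Ackr3, and the same 2 genes were called. The call of Cxcr4 in PMSG-treated WT versus WT was lost without any 1 of the 3 WT arrays, without PMSG-treated WT replicate 1 and without PMSG-treated ESR1KO replicate 3. Its log2 difference stayed between -1.66 and -1.42. Between genotypes after PMSG the count was 3 with each array left out in turn, though leaving out an untreated ESR1KO array could not change it.

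**Figure D2:**
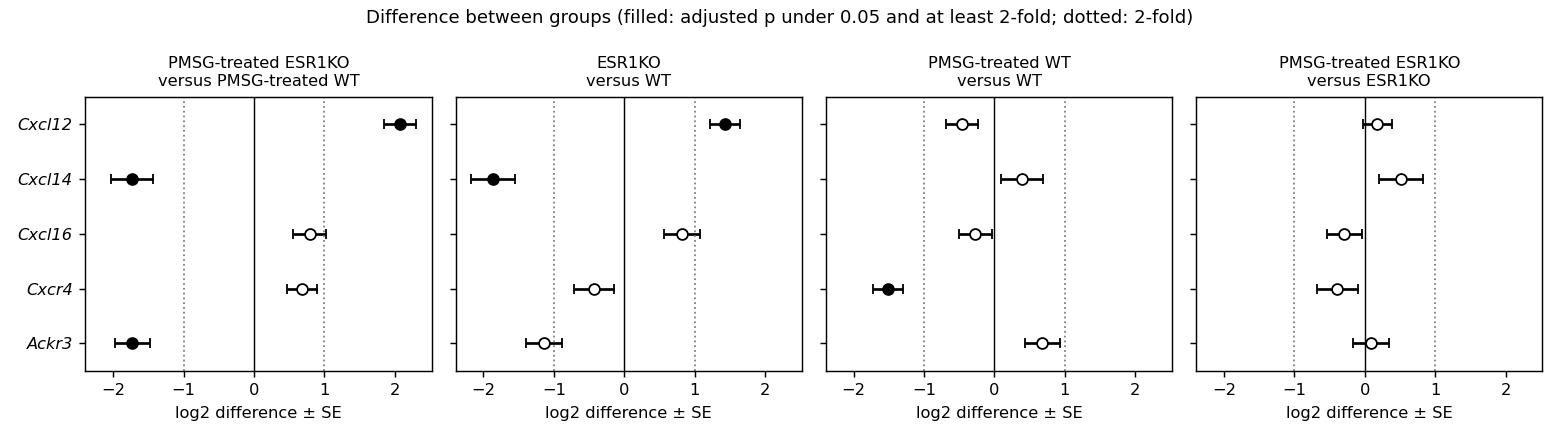
Log2 difference ± SE (horizontal axis) of the 5 genes in the 4 comparisons between groups, each of 3 against 3 arrays, with filled points for differences called and dotted lines at 2-fold. Both genotype comparisons show Cxcl12 to the right (2.07 and 1.43) and Cxcl14 to the left (-1.73 and -1.86), and Cxcr4 lies beyond 2-fold in PMSG-treated WT versus WT (-1.51) only.

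The rest of the CXC family could be read only in untreated ESR1KO oviducts, apart from genes on the located rows. Of 12 other CXC ligands with a probe set, 4 had a mean signal of at least 4 there. They were Cxcl1 (4.47 ± 0.19), which draws neutrophils, Cxcl10 (5.87 ± 0.20), an interferon-induced ligand of CXCR3, Cxcl17 (8.69 ± 0.68), a mucosal chemokine, and Pf4 (9.62 ± 0.30), known from platelets and also made by macrophages (SD, n = 3 each). The ligands of CXCR2 and CXCR3 Cxcl2, Cxcl3, Cxcl5, Ppbp, Cxcl9 and Cxcl11, and Cxcl13 and Cxcl15, were under 4. Of 7 other receptors, only Ackr4 (6.37 ± 0.38), an atypical receptor for CC chemokines, and Cxcr6 (4.02 ± 0.04), the receptor of CXCL16, reached 4. Cxcr2, Cxcr3, Cxcr5, Ackr1 and Ackr2 were under it. The Cxcr6 value lies at the limit, with a second probe set of that gene at 3.76 ± 0.69. For Cxcl1 the other probe sets were under 4, at 3.86 ± 0.34 and 2.09 ± 0.04.

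**Figure D3:**
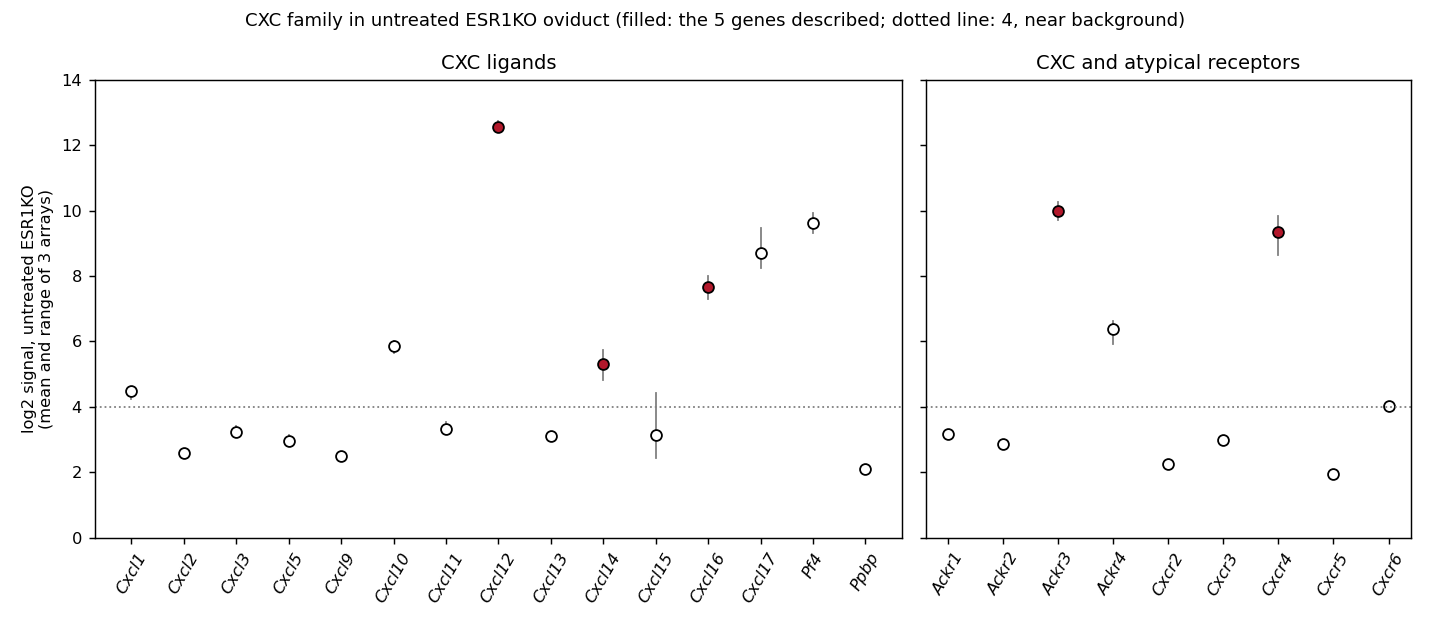
Log2 signal in untreated ESR1KO oviducts (mean and range of 3 arrays, brightest probe set of a gene, vertical axis) of the CXC ligands and of the CXC and atypical receptors, with filled points for the 5 genes described and a dotted line at 4. Most of the other ligands and receptors lie under the line, and levels of different probe sets are not comparable with each other.

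Other probe sets of the members were likewise read in untreated ESR1KO oviducts only. A further Cxcl12 probe set gave 9.0, 8.53 and 8.35 and another 2.06, 1.96 and 1.96. The first of these ran high to low over the arrays in the same order as the probe set described. For Cxcl16 the other probe set gave 6.59, 7.48 and 7.93, in the same array order as the main one. For Cxcl14 it gave 7.80, 6.74 and 5.66, where replicate 1 was highest, while the probe set described was highest in replicate 2. Cxcr4 and Ackr3 had 1 probe set each.

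Among 12 other CXC ligands, 2 were on located rows, and both were higher without ESR1 in at least 1 comparison. Cxcl17 rose in PMSG-treated ESR1KO (8.36 ± 0.34) against PMSG-treated WT (6.48 ± 0.81, SD, n = 3 each), a 3.68-fold difference (limma adjusted p under 0.05), and in untreated ESR1KO it exceeded WT by 2.97-fold, which was not called. The first call was lost without PMSG-treated ESR1KO replicate 2 or 3, with a log2 difference between 1.44 and 2.24 over all arrays left out, and also with unmoderated variance or with only the 6 arrays compared. Pf4 rose in ESR1KO (9.62 ± 0.30) against WT (7.69 ± 0.13), a 3.81-fold difference, and this call held without each array. Between genotypes after PMSG, Pf4 was 1.91-fold higher in the knockout, which was not called. It also rose in PMSG-treated WT (8.76 ± 0.21) against WT by 2.11-fold, a call that was lost without any WT array, any PMSG-treated ESR1KO array, or PMSG-treated WT replicate 1 or 2, and also with unmoderated variance or only the 6 arrays compared. None of the 7 other receptors was on a located row. Located rows were chosen by the study on these arrays, so counts over them are not independent evidence of direction, and 28.3% of them were called higher and 20% lower between genotypes after PMSG.

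Of 28 genes that handle these chemokines or carry their signal, 26 had a probe set and 25 of those reached 4 in untreated ESR1KO oviducts. Only 6 were on located rows. Between genotypes after PMSG, 4 of the 6 were called higher and 2 lower, against 28.3% and 20% of located rows. Dpp4, the membrane peptidase that inactivates CXCL12 by trimming its N terminus, rose most, with 8.40 ± 0.31 in PMSG-treated ESR1KO oviducts and 4.91 ± 1.26 in the PMSG-treated WT (SD, n = 3 each), 11.25-fold. The log2 difference of 3.49 was 2.78 without PMSG-treated WT replicate 3, where the Dpp4 signal was 3.49 and under the background limit. The located Dpp4 probe set read 8.22 in untreated ESR1KO oviducts. Other probe sets of the gene read 10.12, 9.37 and 8.18 there and could not be read in the other groups. Cd74, the MHC class II invariant chain that also serves as a receptor for MIF together with CXCR4, had 12.40 ± 0.69 and 10.03 ± 0.74, 5.17-fold higher, a call lost with unmoderated variance. Gng2, a G protein gamma subunit, had 8.03 ± 0.17 in PMSG-treated ESR1KO oviducts and 10.51 ± 0.57 in the PMSG-treated WT, 5.58-fold lower. Adm, adrenomedullin, a peptide that ACKR3 also scavenges, had 6.96 ± 0.19 and 8.79 ± 0.53, 3.55-fold lower. The other 2, named after their values were seen, were the gelatinase Mmp9, 2.81-fold higher, and the G protein alpha subunit Gnai1, 2.42-fold higher. Mmp9 was dim, with 6.37 ± 0.13 in PMSG-treated ESR1KO oviducts and 4.88 ± 0.49 in the PMSG-treated WT. In untreated ESR1KO oviducts its located probe set read 5.49 and its other one 1.66. Other probe sets read 4.69 for Adm, 5.17, 2.35 and 5.5 for Gng2, and 8.18 and 12.44 for Gnai1 there. The call of Mmp9 was lost with only the 6 arrays compared and without PMSG-treated ESR1KO replicate 3, with a log2 difference between 1.23 and 1.71 over all arrays left out. In ESR1KO versus WT, 2 of the 6 were called lower and none was called higher, against 9.01% and 9.11% of located rows. They were Adm (7.01 ± 0.69 in ESR1KO and 9.06 ± 0.24 in WT, 4.15-fold) and Gng2 (6.92 ± 0.52 in ESR1KO and 8.88 ± 0.31 in WT, 3.88-fold). Both calls were lost without ESR1KO replicate 3, WT replicate 1 or WT replicate 2. That of Adm did not hold either when ESR1KO replicate 1 or WT replicate 3 was left out, and that of Gng2 without ESR1KO replicate 2. Neither call held with unmoderated variance or with only the 6 arrays compared. Their log2 differences stayed between -2.44 and -1.79 for Adm and between -2.26 and -1.78 for Gng2. The remaining genes were not called in ESR1KO versus WT. Their arrays did not overlap, which held for 78.5% of located rows in that comparison, so nothing is read from it. Dpp4 was 2.47-fold, Cd74 1.91-fold and Gnai1 1.7-fold higher there, while Mmp9 was 1.57-fold lower, opposite to its direction after PMSG.

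Of 33 other chemokines and receptors, 4 were on located rows. Cx3cl1, the membrane-bound ligand of CX3CR1, rose 2.25-fold in PMSG-treated ESR1KO (7.86 ± 0.44) against the PMSG-treated WT (6.69 ± 0.19), and Ccrl2, an atypical receptor that binds chemerin, rose 2.71-fold (5.55 ± 0.46 against 4.11 ± 0.07, SD, n = 3 each). Both calls were lost without PMSG-treated ESR1KO replicate 3, and that of Cx3cl1 also without replicate 2 or with only the 6 arrays compared. Ccl28, a mucosal chemokine, rose 5.79-fold in ESR1KO (9.27 ± 0.51) against WT (6.73 ± 0.50), a call lost without ESR1KO replicate 1 or 3 or any WT array, with unmoderated variance, and with only the 6 arrays compared. The log2 differences stayed between 1.03 and 1.42 for Cx3cl1, between 1.27 and 1.70 for Ccrl2 and between 2.24 and 2.74 for Ccl28. Each was also higher in the knockout in the other genotype comparison, where it was not called. Ccl28 was 3.05-fold higher after PMSG. In untreated mice Ccrl2 was 4.01-fold higher, and Cx3cl1 was 1.52-fold higher with overlapping arrays. Ccl8, the fourth located gene, a chemokine of monocytes, was called in no comparison and was named after its values were seen. It had 4.22 ± 0.45 in ESR1KO, against 6.50 ± 1.05 in WT (SD, n = 3 each), a log2 difference of -2.29 without overlap, and 6.82 ± 0.80 in PMSG-treated ESR1KO, against 7.25 ± 0.89 in PMSG-treated WT, with overlap.

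**Figure D4:**
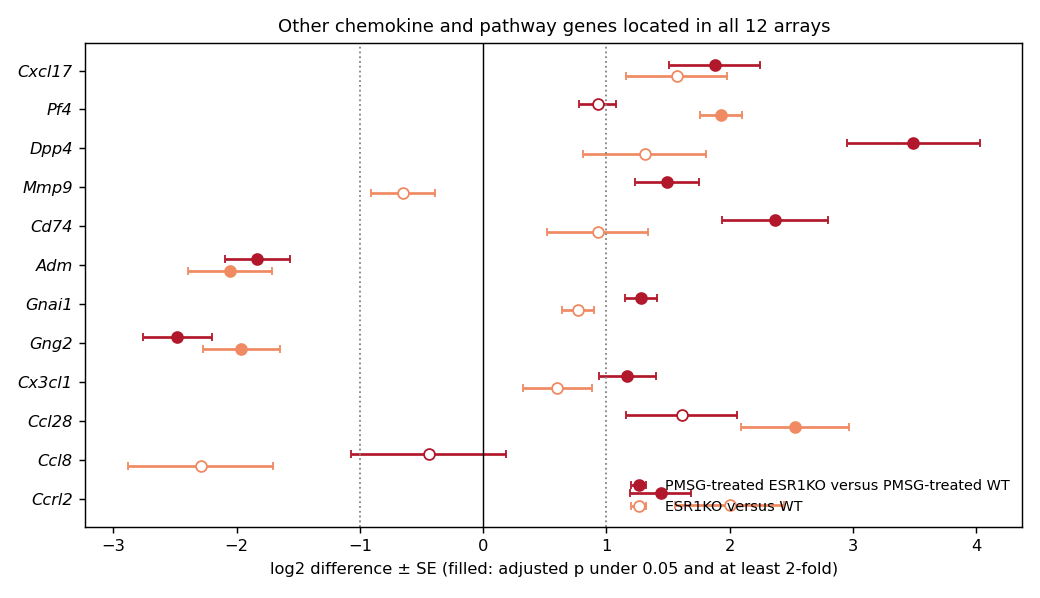
Log2 difference ± SE (horizontal axis) of the 12 other chemokine, receptor and pathway genes on located rows, between genotypes after PMSG and between untreated ESR1KO and WT, with filled points for differences called and dotted lines at 2-fold. Dpp4 lies farthest to the right after PMSG (3.49) and Gng2 farthest to the left (-2.48).

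The genes whose signals over the 12 arrays were most like each member were taken among 1846 located genes, by Pearson's r as a description over arrays that fall into 4 groups. For Cxcl12 they were Stk26 (r = 0.988), a protein kinase, Lgi3 (0.987), a secreted protein gene, and Arsk (0.984), an arylsulfatase gene, and their log2 differences between PMSG-treated ESR1KO and PMSG-treated WT were 2.64, 3.61 and 1.33. For Cxcl14 they were the kinase gene Fyn (0.970), Actg2 (0.962), the enteric smooth muscle actin, and Vegfd (0.961), a lymphatic growth factor, which were all lower in both knockout groups than in the WT group of the same treatment. For Cxcl16 they were Klhl6 (0.965), a gene of lymphoid cells, Cxcl17 (0.960) and Oat (0.957). For Cxcr4 they were Ifitm1 (0.933), an interferon-induced membrane protein gene, Cry2 (0.917), a clock gene, and Eif4a2 (0.873). In PMSG-treated WT against WT these had log2 differences of -0.95, -0.80 and -0.37, smaller than the -1.51 of Cxcr4. For Ackr3 they were Arsj (0.975), another arylsulfatase gene, Pbx3 (0.973), a homeobox gene, and Ptger4 (0.969), a prostaglandin E2 receptor gene. Arsj had a log2 difference of -2.84, Pbx3 of -0.62 and Ptger4 of -1.24 between PMSG-treated ESR1KO and PMSG-treated WT, around the -1.73 of Ackr3.

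**Figure D5:**
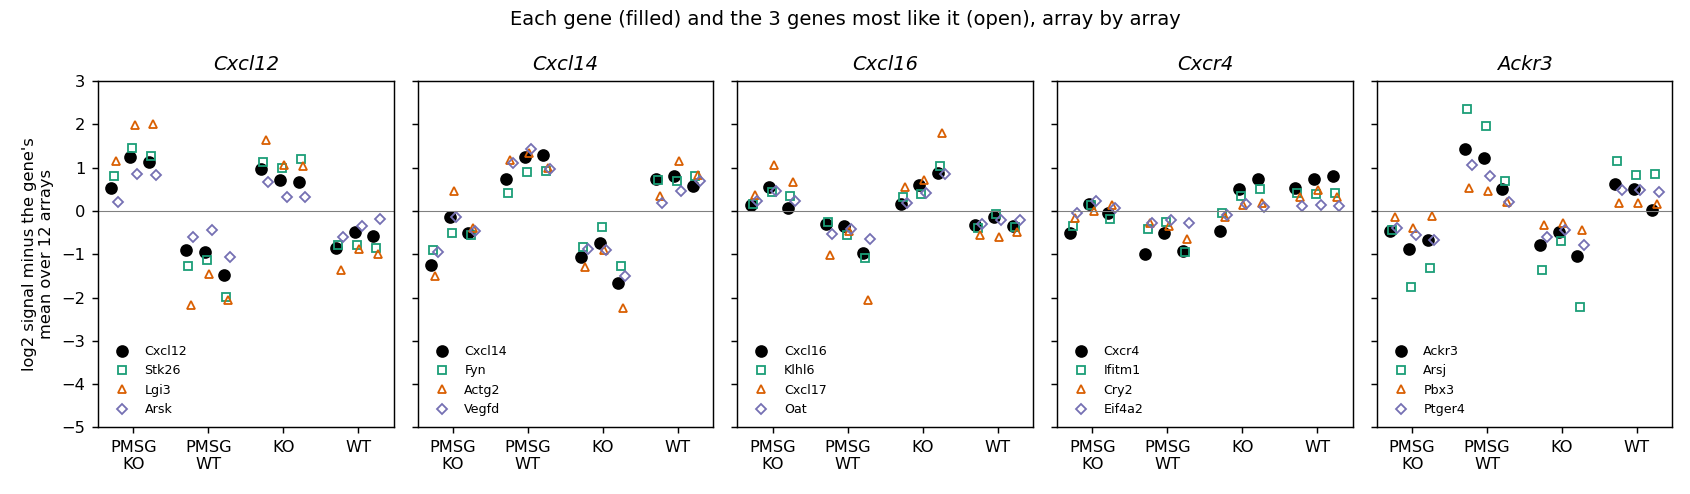
Log2 signal minus the gene's own mean over 12 arrays (vertical axis) for each of the 5 genes (filled circles) and the 3 genes most like it (open symbols), array by array in the 4 groups (KO stands for ESR1KO). The symbols keep together by genotype for Cxcl12, Cxcl14, Cxcl16 and Ackr3, while the Cxcr4 panel is lowest in PMSG-treated WT.

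Markers of several cell types that can carry these genes could be compared between genotypes only where they were on located rows. The study chose those rows as changed on these arrays, so a difference in such a marker is not independent evidence. No secretory or ciliated marker was on a located row. Of 11 leukocyte markers with a probe set, 6 reached 4 in untreated ESR1KO oviducts, and the T, B, natural killer and myeloid cell markers Cd3e, Cd3g, Cd79a, Itgam and Ncr1 were under 4. The summed signal of the 3 on located rows (Csf1r, S100a8 and S100a9) was 10.04 to 10.94 on the log2 scale in PMSG-treated ESR1KO, against 8.04 to 9.01 in PMSG-treated WT, and 9.72 to 10 in ESR1KO, against 8.74 to 9.18 in WT. S100a8 and S100a9 were near background in PMSG-treated WT (3.72 and 2.76 on average) and in WT (3.42 and 3.13). The sums of these groups were therefore close to Csf1r alone (8.49 on average with PMSG and 8.9 without). All 6 endothelial markers but Tie1 reached 4. The summed signal of Pecam1, Kdr and Emcn was 9.25 to 9.53 in PMSG-treated ESR1KO, against 9.65 to 9.98 in PMSG-treated WT, and 8.0 to 8.92 in ESR1KO, against 9.86 to 10.28 in WT. All 6 stromal markers reached 4. Their 3 located members did not move together. Pdgfra was 2.81-fold higher and Lum 4.30-fold lower between genotypes after PMSG, and their sum with Col1a2 was 13.78 to 13.97 in PMSG-treated ESR1KO, against 12.88 to 13.22 in PMSG-treated WT, and 13.04 to 13.73 in ESR1KO, against 12.99 to 13.26 in WT. The located Col1a2 probe set was dim (4.41 in untreated ESR1KO, against 13.33 and 14.01 for the gene's other probe sets) and adds little to the sum. In the knockout groups the sum was close to Pdgfra alone (13.76 on average with PMSG and 13.21 without). The 4 mesothelial markers reached 4, and the located one, Lrrn4, was 10.52 to 10.66 in PMSG-treated ESR1KO, against 8.66 to 9.76 in PMSG-treated WT, and 10.16 to 10.31 in ESR1KO, against 8.42 to 9.22 in WT. All 6 smooth muscle markers reached 4, and the located one, Actg2, was 9.94 to 11.89 in PMSG-treated ESR1KO, against 12.42 to 12.77 in PMSG-treated WT, and 9.20 to 10.52 in ESR1KO, against 11.78 to 12.59 in WT. The located leukocyte and mesothelial markers moved in the direction of Cxcl12 and Cxcl16, and the located endothelial and smooth muscle markers in that of Cxcl14 and Ackr3. For mesothelium and smooth muscle this rests on 1 marker each, and Actg2 was also among the genes most like Cxcl14. Of the endothelial markers, Kdr (-0.23) and Emcn (-0.31) overlapped between genotypes after PMSG, and Pecam1 (-1.26) did not. The part of any cell type in the differences of the 5 genes was not tested.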

How the data were processed

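Whole oviduct RNA was measured on 12 arrays, 3 per group, each a pool of mice; replicates used different mice. The deposited values are log2 signals that the authors made with Partek software (version 6.6), which corrected background by GC-RMA, quantile-normalized the arrays and summarised each probe set by median polish. Of 45101 probe sets, 34958 had 1 gene symbol, 932 several and 9211 none. GC-RMA compresses weak signals, so folds of dim genes are uncertain.

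Only the 3 columns of untreated ESR1KO are in the order of the probe set names, and the other 9 share another row order. Correlations over rows were -0.146 to -0.123 between the sets, against 0.985 to 0.993 and 0.959 to 0.997 within them. Rows were located through fold changes and p-values of the study's supplementary gene list, used only as a row key; 1997 of the 1997 rows held were located, within 8.76e-05 on the log2 scale, and for 28 of them, none a member, a second row also met the limit on p-values. The symbol equalled the annotated one for 1896 of 1903. The list is held here in part, so a gene not located is not shown to be unchanged. Only untreated ESR1KO values can be read for other probe sets.

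The genotype comparison after PMSG and the comparison of PMSG-treated WT with WT were run in limma 3.58.1 (R 4.3.3, variance trend) over 45101 rows of 9 arrays. The other comparisons used the located rows of 12 arrays, the prior variance of that fit (2.87 degrees of freedom) and Benjamini-Hochberg adjustment as for 45101 tests, so their calls are a lower bound. The fit was tested on simulated data. Calls needed an adjusted p under 0.05 and a 2-fold change. Alternatives were no variance trend, unmoderated variance, a mean signal of at least 4, repeated quantile normalization, leaving out 1 array at a time, dropping the fold minimum, a replicate block, and a fit of only the 6 arrays compared. The members and gene lists were chosen with earlier results of these data known. All 5 members were named, with their 3 most alike genes and up to 4 called genes of each list by the size of the genotype difference after PMSG. With 3 arrays a group, their number limits the precision.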

Additional observations from a re-analysis of the deposited data

How the results depend on the processing

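Of 470 log2 differences of the 5 genes under an alternative, 265 could not change, since those settings alter only the error, the filter or the threshold, or leave out arrays of other groups. None of the other 205, from repeated quantile normalization or leaving out an array of the comparison, moved by as much as 1 SD between replicates. Leaving out 1 of 3 arrays shifts a group mean by only part of that group's SD, so most could hardly have moved so far. Nothing is read from this count. Under repeated quantile normalization, the largest change was 0.10 on the log2 scale. Numbers of genes called varied. In PMSG-treated WT versus WT, 1 was called, but 0 with unmoderated variance and 0 with only the 6 arrays compared. In ESR1KO versus WT, 2 were called, but 0 with unmoderated variance and 1 with only the 6 arrays compared, settings with fewer degrees of freedom. With 1 array left out in turn, the numbers were 0 to 1 in PMSG-treated WT versus WT and 0 to 3 in ESR1KO versus WT. Between genotypes after PMSG, 3 were called under every alternative, and in PMSG-treated ESR1KO versus ESR1KO and for the interaction 0 under every alternative. A mean signal of at least 4 gave 3 in ESR1KO versus WT, with Ackr3 added.

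Same-numbered arrays did not all deviate together over located rows (correlations of deviations from group means -0.114 to 0.265). Arrays with different numbers were not compared, so this cannot decide whether the replicate number pairs the samples. A fit that took this number as a block called 3 genes between genotypes after PMSG, 1 in PMSG-treated WT versus WT, 3 in ESR1KO versus WT, and 0 in PMSG-treated ESR1KO versus ESR1KO and for the interaction. Under it the calls of Pf4 in PMSG-treated WT versus WT and of Ccl28 in ESR1KO versus WT were lost.

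Over all rows tested, alternatives called between 1248 and 3065 between genotypes after PMSG (2022 as reported), between 19 and 346 in PMSG-treated WT versus WT (113) and, over located rows, between 101 and 502 in ESR1KO versus WT (362), between 0 and 6 in PMSG-treated ESR1KO versus ESR1KO (2) and between 1 and 46 for the interaction (13). Of the list counts under alternatives, 1377 stayed within 1.5 times of the reported count and 127 did not.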

Other observations

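Of the CC, CX3C and XC chemokines and their receptors, 13 of 33 genes with a probe set reached a mean log2 signal of 4 in untreated ESR1KO oviducts. Among these were Ccl6 (8.27 ± 0.42) and Ccl9 (6.90 ± 0.30), chemokines of myeloid cells, Ccl12 (7.81 ± 0.12), a ligand of CCR2, Ccl27a (9.20 ± 0.49) and Ccl25 (5.87 ± 0.75), chemokines of epithelia, and Cx3cr1 (9.02 ± 0.68), a receptor of macrophages (SD, n = 3 each). Ccl2, Ccl3, Ccl4, Ccl5, Ccl7, Ccl20 and Ccl22 were under 4. These genes were named after their values were seen, and no other group was read for them.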
